A study of Mus musculus with 6 samples.

Results

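The leukocyte integrins examined here are the products of 8 genes, Itgal, Itgam, Itgax, Itgad, Itgae, Itga4, Itgb2 and Itgb7. Their members were taken as all probes on the array, other than control spots, that carry 1 of these names, which gave 21 of 56605 probes and covered 8 of 36870 names. Kidneys of 3 female MRL/MpJ (MRL) mice and 3 female MRL/MpJ-Fas lpr/lpr (LPR) mice were compared, all at 6 months of age, with 1 single-colour Agilent array for each mouse. Both groups share the MRL/MpJ background, and LPR mice carry the lpr mutation of Fas as the model of lupus nephritis. The question was how transcripts of these integrins differ between the control kidney and the kidney of the lupus-prone strain. The 6 arrays sat on 1 slide, where all 3 MRL arrays and LPR 1 had the first number of the slide position at 1 and LPR 2 and LPR 3 had it at 2. Signals are log2 values relative to the 75th percentile of each array, and a log2 change is LPR minus MRL.

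Integrins are adhesion receptors on the cell surface, each made of an alpha and a beta chain that are needed together. The beta 2 chain (Itgb2, CD18) pairs with CD11a (Itgal), CD11b (Itgam), CD11c (Itgax) or CD11d (Itgad), and these receptors hold leukocytes to ICAM molecules, to fibrinogen or to complement C3 fragments. The beta 7 chain (Itgb7) pairs with CD103 (Itgae), which binds E-cadherin on epithelium, or with CD49d (Itga4), which binds MAdCAM-1. CD49d also pairs with the beta 1 chain and then binds VCAM-1 and fibronectin. Kidney parenchyma itself uses other integrins, mainly with the beta 1 chain, to hold cells to the basement membrane. Whole kidney was measured, so more cells of a type and more RNA in each cell cannot be told apart.

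A test was run for 18 of the 21 probes, those whose signal exceeded background clearly on 3 or more arrays. In limma with Benjamini-Hochberg adjustment over 39924 probes, 12 of the 18 were higher in LPR mice and 0 were lower, where 6.53% of all tested probes were higher and 6.17% were lower. The other 6 tested probes did not pass. The filter lets in probes that are bright in 1 group only, and on 4 of the 12 higher probes no MRL array was well above background, while on 7 all 3 were. The median log2 change was 2.28 over the 18 probes and -0.14 over all tested probes. On 13 of the 18 probes every LPR mouse lay above every MRL mouse, which held for 11% of all tested probes. Fewer integrin probes, and fewer of all probes, passed within the first slide position, which holds the 3 MRL arrays and only LPR 1. Each gene is also represented by its brightest tested probe, and by that rule 4 of 8 genes were higher (Itgb2, Itgal, Itgax and Itga4) and 0 were lower, where 7.62% of all genes were higher and 5.4% were lower. For 3 genes (Itgal, Itgae and Itgb7) there were probes that rose beside probes that did not pass, so the probes are described separately.

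**Figure D1:**
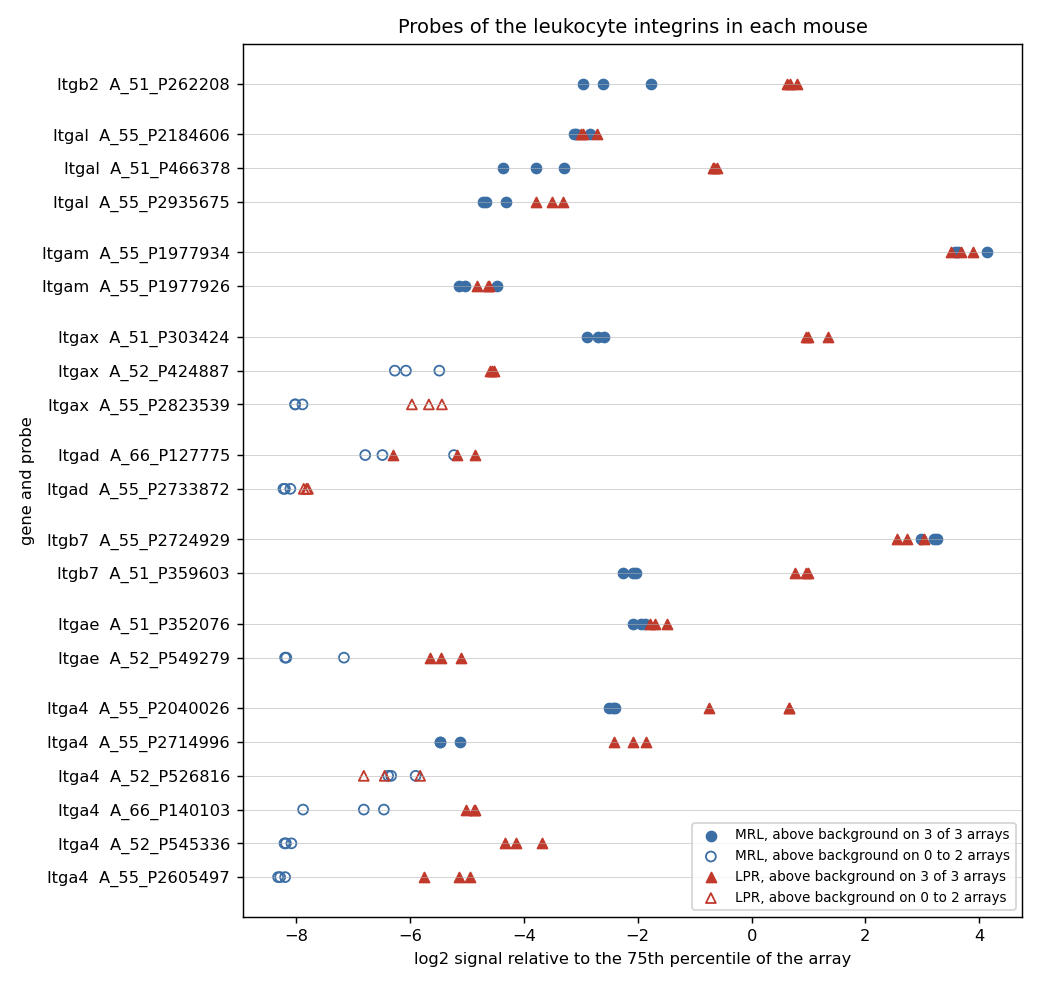
Log2 signal of the 21 integrin probes (vertical axis, by gene) in each mouse, relative to the 75th percentile of its array (horizontal axis), with circles for MRL and triangles for LPR and open symbols where fewer than 3 arrays of the group were well above background. The LPR mice lie apart from the MRL mice on the probes of Itgb2 and Itgax, on 1 of 2 Itgb7 probes and on 5 of 6 Itga4 probes, and they overlap on both Itgam probes.

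Itgb2, the shared chain of the beta 2 integrins, rose by 8.87-fold. Its single probe, A_51_P262208, lies at chr10:77027978-77028037 of the mouse build mm9, on the plus strand. The signals were -2.97, -2.61 and -1.77 in MRL 1, MRL 2 and MRL 3, and 0.79, 0.68 and 0.62 in LPR 1, LPR 2 and LPR 3. The LPR mice lay close together and far above the MRL mice, among which MRL 3 was the highest. The log2 change was 3.15 (standard error, SE, 0.29; limma adjusted p = 0.00067). Within the first slide position the log2 change was 3.25, with an adjusted p of 0.0547 from limma.

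Itgal, the alpha chain of LFA-1, which T cells use to hold to ICAM-1, rose by 9.03-fold on the probe A_51_P466378 (chr7:134477160-134477219, mm9, plus strand). The signals were -4.38, -3.78 and -3.30 in the MRL mice and -0.67, -0.67 and -0.60 in the LPR mice, in the order of the replicates. As with Itgb2, MRL 3 was the highest MRL mouse and the LPR mice hardly differed. The log2 change was 3.17 (SE 0.25, limma adjusted p = 0.00036), and the call held under all 18 alternatives tried. The first 30 of the 60 bases of these probes are given to show which part of each transcript was read, for the probes on which the rises rest.
Itgb2 A_51_P262208: aaagctagagcatgagttatcataatcaag
Itgal A_51_P466378: acttgagagccctggctctgaccagcttca
Itgax A_51_P303424: tcccatctacttttgcaacgttggaattga
Itga4 A_55_P2040026: gtgtgtggaatgcattataaagatctaaca

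On its probe A_51_P466378, Itgal changed by nearly as much as Itgb2. In each mouse the signal of Itgal minus that of Itgb2 was -1.41, -1.17 and -1.53 in MRL mice and -1.46, -1.35 and -1.22 in LPR mice, and the groups overlapped. This difference within a mouse changed by 0.03 between the groups (exact permutation test, two-sided, p = 0.8, adjusted over 7 pairs p = 0.8). The SD over 3 mice was 0.18 for MRL and 0.12 for LPR. With normexp background correction the change was -0.54. With 3 mice per group the test cannot show equal changes. The other tested Itgal probes had log2 changes of 0.13 and 1.04, against 3.15 for Itgb2, and their differences from Itgb2 were not computed. Among all pairs of the members that were well above background on all 6 arrays, Itgal and Itgb2 had the most alike profiles over the 6 mice, with a root mean square difference of 0.13 on the log2 scale after each was centred on its mean.

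A further pair of Itgal probes gave another picture. A_55_P2184606 (chr7:134474708-134474767) and A_55_P2935675 (chr7:134474706-134474766), both on the plus strand of mm9 and assigned to an Ensembl transcript and to a cDNA clone, not to NM_008400, share a run of 56 bases. Their first 30 bases are given with the bases before the shared run in capitals.
Itgal A_55_P2184606: GTCccactgctctgtcttttattaacaatg
Itgal A_55_P2935675: CTGTccactgctctgtcttttattaacaat
The signals of A_55_P2184606 were -3.09, -2.83 and -3.13 in MRL mice and -2.96, -2.71 and -3.00 in LPR mice. These values overlapped, and the log2 change of 0.13 (SE 0.13) did not pass in limma (adjusted p = 0.555). The signals of A_55_P2935675 were -4.66, -4.32 and -4.72 in MRL mice and -3.31, -3.50 and -3.78 in LPR mice. Here every LPR mouse was higher, and the log2 change was 1.04 (SE 0.17, limma adjusted p = 0.0094), a rise of 2.05-fold. This call was lost with the methods' t-test on log2 values (adjusted p = 0.0566) and within the first slide position (limma adjusted p = 0.0627). Although nearly the same bases were read, the probes differed by 0.91 in their log2 change, and the difference was not tested.

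**Figure D2:**
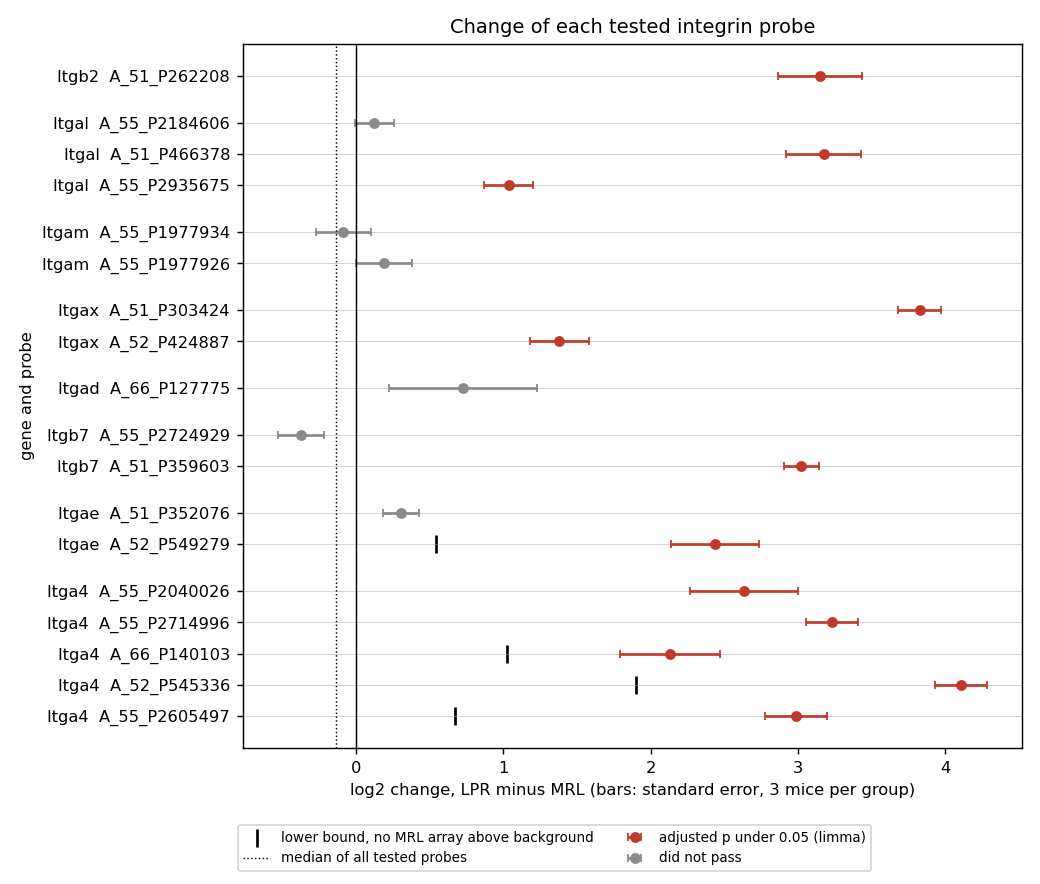
Log2 change, LPR minus MRL, with its standard error (horizontal axis, 3 mice per group) for the 18 tested integrin probes (vertical axis), in red where the adjusted p from limma was under 0.05. Black ticks, labelled as lower bound, mark the change with MRL signals raised to the detection limit for the 4 probes with no MRL array above background. The dotted line marks the median of all tested probes at -0.14. Probes of the same gene fall on both sides of the threshold for Itgal, Itgb7 and Itgae.

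Itgam, the alpha chain of Mac-1 on macrophages and neutrophils, did not pass on either of its probes. A_55_P1977934 (chr7:135261755-135261814) gave 4.14, 3.63 and 3.57 in MRL mice and 3.69, 3.50 and 3.90 in LPR mice. The values overlapped, and MRL 1 was the highest mouse. The log2 change was -0.09 (SE 0.19, limma adjusted p = 0.783), with 0.09 when MRL 1 was left out and 0.01 when LPR 2 was left out. A_55_P1977926 (chr7:135212140-135212199), which reads the start of NM_008401, gave -5.03, -5.14 and -4.47 in MRL mice and -4.61, -4.62 and -4.83 in LPR mice. Again the groups overlapped, and the log2 change was 0.19 (SE 0.19, limma adjusted p = 0.522). This probe was dim, though well above background on 3 of 3 MRL and 3 of 3 LPR arrays. Within each mouse, Itgam minus Itgb2 was 5.35 to 7.11 in MRL mice and 2.82 to 3.28 in LPR mice on the brighter Itgam probe, a change of -3.24. On the other Itgam probe the change was -2.96. Both differences subtract the same Itgb2 signals, which rose by 3.15, so the 2 probes do not give separate support. The exact permutation test (two-sided) gave p = 0.1 for both, the smallest p that 3 against 3 mice allow.

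Itgax (CD11c), the beta 2 integrin used as a marker of dendritic cells and some macrophages, is next to Itgam on the chromosome. Its brightest probe, A_51_P303424 (chr7:135294052-135294111), gave -2.70, -2.59 and -2.90 in MRL mice and 1.34, 0.95 and 0.99 in LPR mice. The distance between the groups was far over the spread in either, and LPR 1 was the highest. The log2 change was 3.82 (SE 0.15, limma adjusted p = 1.8e-05), at the 99.2 percentile of all tested probes. A_52_P424887 (chr7:135277352-135277411) cleared the background in 3 LPR mice but only 1 MRL mouse, with signals of -6.27, -6.07 and -5.49 against -4.57, -4.52 and -4.60. Its log2 change of 1.38 (SE 0.20, limma adjusted p = 0.0061) was smaller, and 4 of 17 alternatives lost the call. The third Itgax probe was too dim to be tested. Itgax minus Itgb2 within a mouse was 0.27, 0.03 and -1.13 in MRL mice and 0.55, 0.27 and 0.37 in LPR mice, so that the LPR mice lay above the MRL mice by a narrow margin, and the change of 0.68 had p = 0.1 in the exact permutation test (two-sided).

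Itgad (CD11d), found on some tissue macrophages, was close to background. On A_66_P127775 (chr7:135348901-135348960) the signals were -6.79, -5.23 and -6.49 in MRL mice, of which 1 was well above background, and -6.30, -5.17 and -4.86 in LPR mice. The groups overlapped. The log2 change of 0.73 (SE 0.50) did not pass in limma (adjusted p = 0.364), and it was -0.13 within the first slide position. A_55_P2733872 was not well above background in any mouse.

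The 4 alpha chains of the beta 2 integrins all lie on chromosome 7, with Itgam, Itgax and Itgad side by side in the RefSeq gene order of GRCm38.p6. Of the 5 protein-coding genes on each side of these 3, all 10 were tested, and 1 was higher and 2 were lower, with log2 changes from -1.58 to 1.43. The higher gene was Pycard, the adaptor of inflammasomes, with a log2 change of 1.43 (limma adjusted p = 0.0012). The lower genes were Cox6a2, with -1.58, and Slc5a2, a glucose transporter of the proximal tubule, with -0.57. Around Itgal, 9 of the 10 neighbours were tested, none passed, and they ranged from -0.40 to 0.26. These neighbours were chosen by position after the values of the members had been seen. The RefSeq promoter table (GRCm38.p6) held 4 of the 8 members, and the 150 bases before the start are given for the adjacent genes Itgam (chr7:128062490-128062639, plus strand) and Itgax (chr7:128129400-128129549, plus strand), since the probes of Itgam did not pass and those of Itgax rose. Capitals mark GAGGAA or its reverse complement TTCCTC, letters that hold GGAA or TTCC, the core bound by the myeloid factor PU.1. The core without the further letters was not marked. It also occurs in the Itgax sequence and elsewhere in the Itgam sequence.
Itgam: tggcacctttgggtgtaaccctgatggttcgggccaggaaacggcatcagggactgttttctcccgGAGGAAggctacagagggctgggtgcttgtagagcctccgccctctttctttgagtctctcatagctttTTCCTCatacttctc
Itgax: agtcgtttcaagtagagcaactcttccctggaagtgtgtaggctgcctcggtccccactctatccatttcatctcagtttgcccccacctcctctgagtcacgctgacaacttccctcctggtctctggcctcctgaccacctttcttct
The longer letters GAGGAA or TTCCTC were in 1 of the 4 promoters, that of Itgam. They were in 14.5% of 32851 promoters over windows of the same length, counting both strands.

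Itgb7, the beta chain shared by the gut-homing receptor and CD103, rose by 8.12-fold on the probe A_51_P359603 (chr15:102046450-102046509, minus strand), which reads NM_013566. The signals were -2.26, -2.08 and -2.02 in MRL mice and 0.75, 0.99 and 0.96 in LPR mice. The groups lay far apart, with little spread in either. The log2 change was 3.02 (SE 0.12, limma adjusted p = 2.0e-05), and the call held under all 18 alternatives. The genes with the profile most like this probe over the 6 mice, a comparison added after the values were seen, were Zap70 and Map4k1, kinases of lymphocyte signalling, and H2-K1, an MHC class I gene, with root mean square differences of 0.08, 0.09 and 0.09.

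The other Itgb7 probe, A_55_P2724929 (chr15:102061127-102061186, minus strand), is assigned to a predicted transcript and was the brighter. It gave 2.98, 3.21 and 3.26 in MRL mice and 2.56, 3.04 and 2.73 in LPR mice. The groups overlapped, and the log2 change of -0.37 (SE 0.15) did not pass in limma (adjusted p = 0.159). By the rule of the brightest probe Itgb7 is therefore not among the genes that rose, although its NM_013566 probe rose. Averaged over its probes, this brighter one included, Itgb7 passed with a log2 change of 1.32 (limma adjusted p = 0.0010). Itgae passed with 1.37 in the same way. Its average takes in A_52_P549279, on which no MRL array was well above background, without a floor.

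The bright, unmoved probes of Itgb7 and of Itgam both contain a dinucleotide repeat. A stretch of 30 bases of each is shown beside the first 30 bases of the other probe of the same gene, with the run of alternating CA or TG in capitals.
Itgb7 A_55_P2724929: tttcctTGTGTGTGTGTGTGTGTcatgatt
Itgb7 A_51_P359603: atttttcagagtgaccttcagagggcagca
Itgam A_55_P1977934: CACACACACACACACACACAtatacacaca
Itgam A_55_P1977926: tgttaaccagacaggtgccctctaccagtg
The runs were 17 bases long in the Itgb7 probe and 20 in the Itgam probe, and the longest such run in any other probe of the members was 7. Of all 39924 tested probes, 112 (0.281%) held a run of at least 16 bases. All 112 were well above background on all 6 arrays, 0 were higher and 2 were lower in limma, and their log2 changes had a 5th percentile of -0.42 and a 95th percentile of -0.13, against -0.66 and 0.98 over all tested probes. The Itgb7 probe followed this group from mouse to mouse. Centred on its own mean, it was 0.01, 0.25 and 0.30 in MRL mice and -0.40, 0.07 and -0.23 in LPR mice, where the median repeat probe was 0.09, 0.19 and 0.20 in MRL mice and -0.31, 0.03 and -0.20 in LPR mice. The Itgam probe did not follow it, with 0.40, -0.10 and -0.17 in MRL mice and -0.05, -0.24 and 0.16 in LPR mice. By the profile over the 6 mice, the 3 genes most like the brighter Itgb7 probe were Tmem239, Frmpd2 and Nrp2, and their probes held runs of 31, 28 and 28 bases. Whether these probes report the transcripts of Itgb7 and Itgam was not tested.

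Itgae, the CD103 chain of T cells that stay in epithelium, also differed between its probes. Both probes cross an exon junction, A_51_P352076 (chr11:72959105-72960563, NM_008399) and A_52_P549279 (chr11:72945236-72946221, NM_172944), on the plus strand of mm9. Over their full length the longest shared run was 5 bases, and the first 30 bases of each are given.
Itgae A_51_P352076: catcggaggcctcctggtcttggttgtgat
Itgae A_52_P549279: ataggacagcagatatcactgtgaccatct
On A_51_P352076 the signals were -2.08, -1.87 and -1.95 in MRL mice and -1.70, -1.49 and -1.79 in LPR mice. Every LPR mouse lay above every MRL mouse by a narrow margin, and the log2 change of 0.31 (SE 0.12) did not pass in limma (adjusted p = 0.148). On A_52_P549279 the signals were -7.16, -8.20 and -8.18 in MRL mice, none well above background, and -5.45, -5.66 and -5.11 in LPR mice, all above it. With MRL signals raised to the detection limit the rise was 1.46-fold, and with normexp the log2 change was 0.24. The signals without a floor gave a limma adjusted p of 0.0028. This call was lost under 4 of 17 alternatives, among them a floor at the detection limit (limma adjusted p = 0.0568). The genes most like the brighter Itgae probe were Tuba1b, Gna12 and Phc2, which are not particular to leukocytes, at root mean square differences of 0.03. This measure is not scaled to the size of a change, so probes that change little lie close to one another.

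Itga4 (CD49d), which lets lymphocytes and monocytes bind VCAM-1, was higher on all 5 of its tested probes, at chromosome 2 between 79097898 and 79173252. On 3 of these, no MRL array was well above background. A_55_P2040026 and A_66_P140103 are assigned to NM_010576, but A_55_P2714996, A_52_P545336 and A_55_P2605497 to Ensembl transcripts. The brightest, A_55_P2040026 (chr2:79173193-79173252, NM_010576), gave -2.50, -2.39 and -2.44 in MRL mice and 0.65, -0.74 and 0.66 in LPR mice. All LPR mice were higher, but LPR 2 was lower than the other LPR mice. The log2 change was 2.63 (SE 0.37, limma adjusted p = 0.0050), and the methods' t-test on log2 values lost the call (adjusted p = 0.0565). A_55_P2714996 (chr2:79097898-79097957) gave -5.47, -5.47 and -5.12 in MRL mice and -2.08, -2.42 and -1.86 in LPR mice, with a log2 change of 3.23 (SE 0.18, limma adjusted p = 7.2e-05). LPR 2 was the lowest LPR mouse on this probe too. On the other 3 tested probes no MRL array and every LPR array was well above background. With MRL signals raised to the detection limit, the rises were 3.73-fold on A_52_P545336, 2.04-fold on A_66_P140103 and 1.59-fold on A_55_P2605497. The unfloored signals gave limma adjusted p-values of 2.5e-05, 0.0090 and 0.00020 in the same order. With normexp the log2 changes of A_66_P140103 and A_55_P2605497 were only 0.22 and 0.31. With a floor at the detection limit A_55_P2605497 no longer passed (log2 change 0.67, limma adjusted p = 0.0705), and 2 of 17 alternatives lost its call in all. A_66_P140103 was lost under 4 of 17 alternatives (limma adjusted p = 0.135 within the first slide position, the highest), and A_52_P545336 under 0 of 17. The last probe, A_52_P526816, was well above background on 1 MRL and 1 LPR array and was not tested. By the profile over the 6 mice, Gbp4, an interferon-induced GTPase, and Adamdec1 were most like the brightest Itga4 probe (root mean square differences of 0.08 and 0.09), which was looked up after the values were seen.

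For the partners of Itga4 the outcome turned on the probe. Itga4 minus Itgb1 within a mouse was -6.38, -6.36 and -6.50 in MRL mice and -3.43, -4.67 and -3.28 in LPR mice, a change of 2.61 with p = 0.1 in the exact permutation test (two-sided). Itgb1 itself, the beta chain of most parenchymal integrins, had a log2 change of 0.02 (limma adjusted p = 0.923). Itga4 minus Itgb7 changed by 3.01 with the brighter Itgb7 probe and by -0.39 with the NM_013566 probe, where the values were -0.24, -0.31 and -0.42 in MRL mice and -0.10, -1.73 and -0.30 in LPR mice and overlapped (exact permutation test, two-sided, p = 0.9). Itgae minus Itgb7 changed by 0.68 with the brighter probe and by -2.72 with the NM_013566 probe, and the groups did not overlap in either case (exact permutation test, two-sided, p = 0.1 for each). Itgad minus Itgb2 changed by -2.42 (exact permutation test, two-sided, p = 0.1), but the Itgad probe was well above background on only 1 of 3 MRL arrays, so the size of this change rests on signals near background. After adjustment over the 7 pairs, the 6 pairs at p = 0.1 had p = 0.117 by the exact test.

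**Figure D3:**
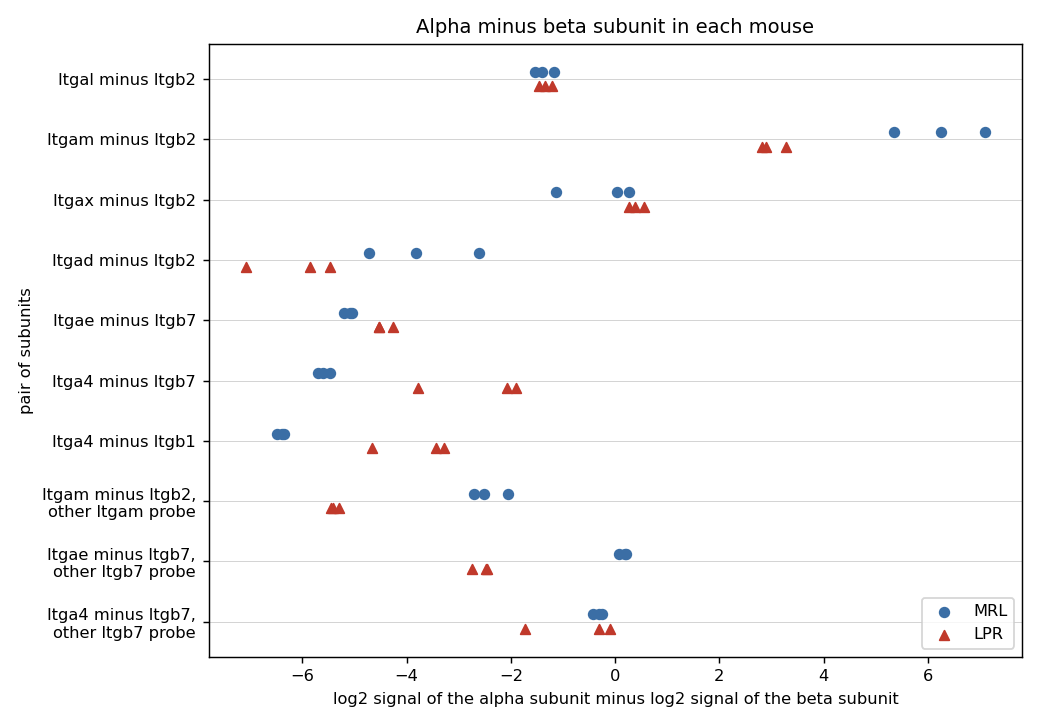
Log2 signal of the alpha subunit minus that of the beta subunit (horizontal axis) in each mouse for 7 pairs of subunits (vertical axis), with circles for MRL and triangles for LPR. The 3 bottom rows use the other probe of Itgam or Itgb7. On the Itgal probe A_51_P466378, Itgal minus Itgb2 stays between -1.53 and -1.17 in all 6 mice. Itga4 minus Itgb7 and Itgae minus Itgb7 turn their direction with the Itgb7 probe.

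The other integrin subunits moved less. All 18 genes on this list were tested, and 4 were higher, 2 were lower and 12 did not pass, with a median log2 change of -0.13. The higher genes were Itga11 (1.09) and Itga5 (0.77), chains of a collagen and of a fibronectin receptor, Itgb3 (1.02), found on platelets and other cells, and Itga9 (0.77). On a dimmer probe of the same gene, Itga11 (-0.38) and Itgb3 (-0.45) did not pass in limma, while Itga9 (0.94) was higher. The dimmer Itga11 and Itgb3 probes were each well above background on only 2 of 3 MRL arrays and 1 of 3 LPR arrays. The lower genes were Itgb6, an epithelial chain, with -0.85, and Itgav, its partner, with -0.50. The dimmer Itgb6 probe was lower too (-0.83), while the dimmer Itgav probes (-0.34, -0.46 and -0.70) did not pass. Adjusted p-values from limma were 0.0029 to 0.0230 for the higher genes, and 0.0054 and 0.0358 for the lower genes. None of these 6 calls remained within the first slide position. By comparison, the 8 leukocyte integrins had a median of 1.68 by their brightest probes.

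Among the ligands, 3 of 16 genes were higher and 0 were lower, with a median log2 change of 0.25. Vcam1, the ligand of CD49d with the beta 1 chain, lay between -0.05 and 0.18 in MRL mice and between 1.92 and 2.71 in LPR mice, with a log2 change of 2.28 (SE 0.20, limma adjusted p = 0.00060). Icam1, the main ligand of LFA-1, lay between 0.92 and 1.06 in MRL mice and between 1.93 and 2.05 in LPR mice, with a log2 change of 0.99 (SE 0.10, limma adjusted p = 0.0011). C3, whose fragment iC3b binds CD11b and CD11c, rose most, with a log2 change of 2.48 (limma adjusted p = 6.4e-05). Madcam1, the ligand of CD49d with the beta 7 chain, was well above background on 1 of 3 MRL arrays and 3 of 3 LPR arrays and did not pass (log2 change 0.52, limma adjusted p = 0.235). Cdh1, the E-cadherin bound by CD103, had a log2 change of -0.30 and did not pass (limma adjusted p = 0.123).

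Of 20 tested genes that turn integrins on or off or signal from them, 11 were higher and 0 were lower, with a median log2 change of 0.60. Among those that rose were Apbb1ip (3.17), which brings talin to the membrane, and Fermt3 (2.99), the kindlin of blood cells. Their adjusted p-values from limma were 0.0015 and 0.00013. The 12 activators included 6 higher genes, the 4 inhibitors 2 and the 4 kinases 3. Within the first slide position 6 of the 20 were higher. Whether a receptor was active cannot be read from transcripts.

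Most markers of leukocytes were higher in LPR mice, and whether they moved with the integrins was not tested. Of 34 tested markers 25 were higher and 0 were lower, with a median log2 change of 2.33, and within the first slide position 13 were higher. All 5 T cell markers were higher, and the largest rises on the list were those of Cd2 (4.64), Nkg7 (4.42) and Cd3g (4.15). The summed level of the 5 T cell markers was 0.09 to 0.40 in MRL mice and 3.17 to 3.41 in LPR mice on the log2 scale. The summed level of the 5 pan-leukocyte markers was 2.41 to 3.12 in MRL mice, with MRL 3 the highest as for Itgb2 and Itgal, and 5.03 to 5.30 in LPR mice. That of the 5 neutrophil markers was 0.97 to 1.35 in MRL mice and 2.40 to 3.53 in LPR mice, with LPR 2 the highest. The sum is led by the brightest markers. Of the LPR mice, LPR 2 was highest for S100a9 (2.99), S100a8 (1.07) and Mpo (-3.15) but lowest for Cxcr2 (-5.01). Ly6g was 0.43 in both LPR 2 and LPR 3. The higher markers numbered 4 of 5 for macrophages, 4 of 5 for dendritic cells, 3 of 5 for B cells, 3 of 5 for neutrophils and 2 of 4 for CD8 and NK cells. How much of each integrin's change these cells carried was not tested. The genes most like Itgb2 over the 6 mice were Myo1g, Ncf4 and Lyz2, those most like Itgal were Lyz2, Itgb2 and Fgl2, and those most like Itgax were H2-Ab1, Icos and Il2rb, with root mean square differences of 0.09 to 0.13.

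**Figure D4:**
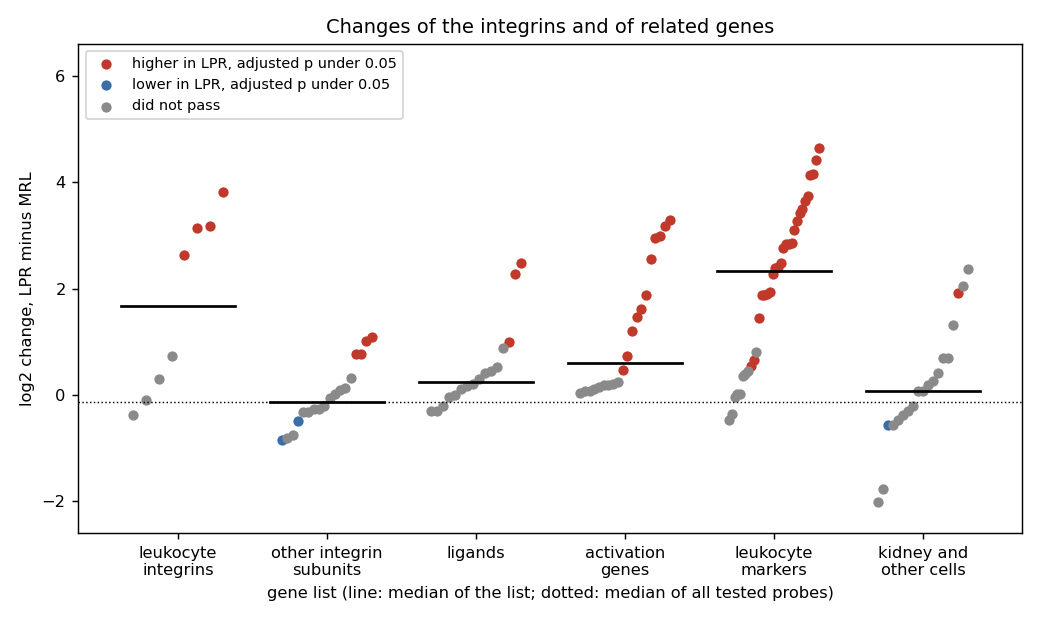
Log2 change, LPR minus MRL (vertical axis), of each tested gene by its brightest probe, for the 8 leukocyte integrins and 5 related lists (horizontal axis), in red or blue where the adjusted p from limma was under 0.05. Black lines mark the medians, which are 1.68 for the leukocyte integrins, -0.13 for the other integrin subunits, 0.25 for the ligands, 0.60 for the activation genes and 2.33 for the leukocyte markers.

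Markers of kidney and other cells were checked on the same arrays. All 5 tubule, 2 podocyte and 4 endothelial markers were above background in all mice, as the labelled tissue requires. Of 19 genes, Pf4 of platelets was higher (log2 change 1.91) and Kdr of endothelium was lower (-0.57). The summed level of the 3 erythroid markers was lowest in MRL 2 (5.69, against 7.78 to 9.27 in the other mice), and that of the 2 adipocyte markers was lowest in LPR 3 (-2.86, against 0.08 to 1.21). Their part in the integrin results was not tested. The brighter of 2 Fas probes was -0.37, -0.28 and -0.06 in MRL mice and -0.49, -1.25 and -0.37 in LPR mice, and its log2 change of -0.47 did not pass in limma (adjusted p = 0.234). The other Fas probe, A_52_P73385, went the other way, with 0 of 3 MRL arrays and 3 of 3 LPR arrays above background. With MRL signals raised to the detection limit its rise was 1.47-fold, and its signals without a floor gave a limma adjusted p of 0.0338. Where the Fas probes lie relative to the mutation was not examined, so the Fas level was not used to check the labels.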

How the data were processed

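RNA of 6 kidneys, 1 per mouse and not pooled, was hybridized to Agilent SurePrint G3 Mouse arrays with a single dye. The authors deposited, for each spot, the background-subtracted intensity that Agilent Feature Extraction 12.0.3.1 gave, together with other flags of the scanner software, and without scaling between arrays. The authors also deposited a ratio per spot, which was found to be the same intensity divided by 1 constant per array close to its 75th percentile over all spots. Its median was 0.0818 to 0.0883, its scale is linear, genes are not centred, and it served as an alternative.

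Control spots and 73 to 90 outlier spots per array were dropped. Intensities were converted to log2, the 75th percentile of each array (706 to 942) was subtracted, and spots of 1 probe were averaged. Between 69.6% and 73.5% of spots were well above background, and none was saturated. The number of arrays limits precision, and slide position was partly shared with group. Probes well above background on 3 or more of the 6 arrays were tested with limma 3.58.1 in R 4.3.3, two-sided, with Benjamini-Hochberg adjustment over 39924 probes and a threshold of 0.05. Of the genes with several probes the brightest tested probe was taken, and the others are given for the members. For a probe with no MRL array well above background, the fold change given used MRL signals raised to the detection limit. It compares the means of both groups on the log2 scale after any MRL value below the dimmest well-above-background signal of its array had been set to that signal. This value allows for no error, and some of these probes changed by less with normexp.

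The members, lists and tests were chosen with earlier results of these data known. Named are all members, Fas, the 3 largest rises and all falls that passed on each list, Icam1, Vcam1, Madcam1, Cdh1 and Itgb1 as partners, and the 3 genes most like Itgb2, Itgal, Itgax, Itgae and Itgb7 by profile. Other genes were named after their values were seen. An item that the rule would name is not reported here and remains in the counts. Probe sequences and mm9 positions come from the array files and promoters from RefSeq (GRCm38.p6), and the builds were not mixed. Of 234 probes of listed genes, 171 were matched to RefSeq identifiers, and 0 had another symbol. The labels give separate mice. The steps were tested on simulated data. The alternatives were normexp with an offset of 50, quantile normalization, the deposited ratios, other filters, kept outliers, a floor, an intensity trend, slide position, the replicate block, the methods' t-test, the mean of probes, and leaving out each mouse. The fit within the first slide position and the other probes of Itgam and Itgb7 were added after seeing the data. Figures were drawn with matplotlib 3.10.9.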

Additional observations from a re-analysis of the deposited data

Results flagged for a closer look

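The Itgax probe A_55_P2823539 (chr7:135284029-135284088) stands out because it carried a signal in LPR mice while it was too dim for the test. LPR 1 to 3 gave -5.44, -5.67 and -5.97, of which 2 cleared the background, and MRL 1 to 3 gave -7.89, -8.02 and -8.02, of which 0 did. With MRL signals raised to the detection limit, the LPR signals were 1.20-fold higher, and the difference was not tested.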

How the results depend on the processing

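Of the integrin probes that rose, Itgax A_51_P303424, Itgal A_51_P466378, Itgb7 A_51_P359603 and Itga4 A_55_P2714996 kept direction and call under all 18 alternatives. The number of higher integrin probes (12) was 7 when all 6 arrays had to be well above background, since fewer probes were then tested, and 7 within the first slide position. For all probes, the number higher was 1736 with the methods' t-test on log2 values, 1458 with slide position as a term and 1116 within the first position. The number lower was 1386 with that t-test, 1093 without a filter, 4498 with normexp, 1117 with the replicate block, 463 with slide position, 315 within the first position and 760 to 2269 without each replicate. The cause was not tested. The methods' t-test gave 13 integrin probes an unadjusted p under its threshold and 8 after Benjamini-Hochberg adjustment (10754 and 3122 of all probes). Same-numbered mice of both groups correlated at 0.15, 0.03 and 0.02 in their deviations from the group means, so the numbers were not taken to pair them, and the replicate block changed no call of an integrin probe. Within the first position 6 activation genes and 13 leukocyte markers were higher. Of the other integrin subunits, 2 were higher by the mean of probes, 1 with slide position and 0 within the first position, and the number lower was 1 with the t-test, without a filter, with quantile normalization, with the replicate block and without any 1 replicate, and 0 with slide position or within the first position.

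Itgal minus Itgb2 was -0.54 with normexp, and -0.055 to 0.125 without each replicate. With the other Itgb7 probe, Itga4 minus Itgb7 was -0.39 and Itgae minus Itgb7 was -2.72. Among probes that did not pass, the sign turned for Itgad A_66_P127775 (-0.13 with slide position and within the first position), Itgam A_55_P1977926 (-0.047 with normexp) and Itgam A_55_P1977934 (-0.191 to 0.0916 without each replicate, with 0.012 without LPR replicate 2). Dim probes rest on MRL signals at background: with normexp, the log2 changes of Itga4 A_66_P140103, Itga4 A_55_P2605497, Itgae A_52_P549279 and Itgax A_52_P424887 were 0.22, 0.31, 0.24 and 0.17 and did not pass.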
